A study of Mus musculus with 12 samples.

Results

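The PRAME-like genes of the mouse are counted here in Etl4 knockout and wild type androgenetic haploid embryonic stem cells (ESCs). Androgenetic ESCs derive from embryos whose genome comes from sperm, and haploid ones carry a single chromosome set, which such cells tend to double in culture. The 9 members are Pramel3, Pramel4, Pramel5, Pramel6, Pramel7, Pramef8, Pramef12, Pramef17 and Pramef25, out of 24421 gene symbols in the deposited count tables. They were chosen by name from the PRAME family after fold changes in these same libraries were known, so their differences within the OdG libraries and between the cell lines are given as descriptions, without p-values.

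By its title, the study links loss of Etl4, found in a genetic screen, to stable haploidy. All 12 libraries are RNA-seq from C57BL/6 androgenetic haploid ESCs. The OdG cell line gave Etl4 knockout (KO) line 2, Etl4 KO line 1 and wild type (WT), with 2 libraries each. The EG1 cell line gave 3 libraries of Etl4 KO cells from 1 line and 3 libraries of WT cells. The labels give the genotype and no account of the edit, and they do not tell whether replicates came from separate cultures, so each p-value speaks for the scatter among the libraries at hand, which could be technical. OdG and EG1 libraries were deposited in separate tables, and cell line and table cannot be told apart.

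PRAME family proteins are built of leucine-rich repeats, and most family genes are active in germ cells and early embryos. Human PRAME is a substrate receptor of a Cullin 2 ubiquitin ligase and represses retinoic acid receptor signalling. In mouse, Pramel7 is active in the inner cell mass and in naive ESCs, where its protein directs UHRF1, the partner of the maintenance DNA methyltransferase DNMT1, to degradation. Mouse Pramel6 and Pramel7 are linked to LIF and STAT3 signalling and to the naive state, and Pramef12 serves spermatogonial stem cells in the mouse testis.

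Of the 9 members, 6 lie on chromosome 4 within 996039 bases (GENCODE M21 on GRCm38, chr4:143412426-144408464). Pramel7 and Pramel6 are neighbours on chromosome 2 (chr2:87489087-87510872), and Pramel3 is X-linked (chrX:135302307-135312652). RefSeq now calls Pramef8, Pramef12, Pramef17 and Pramef25 by the names Pramel12, Pramel13, Pramel14 and Pramel16. No exon of another annotated gene overlapped an exon of a member. Of all 50-base stretches in the annotated transcripts, none of Pramel6, Pramef8 or Pramef12 and 1.43% of those of Pramel7 occurred in transcripts of another gene. The share was 25.9% for Pramel5, 63.5% for Pramef25, 73.5% for Pramef17, 81.8% for Pramel3 and 87.4% for Pramel4. How the authors' counting treated reads that fit several genes is not given in the sources used here, so levels of these 5 genes are uncertain.

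Promoter windows from RefSeq (GRCm38.p6) were available for 8 of the 9 members, each with 250 bases before and 50 bases after the annotated start. Those below show the members whose levels moved between groups, beside Pramef12, whose level stayed within a narrow range, and beside Gm13128, a family gene that is a near copy of Pramef17. Each is written 5′ to 3′ on the strand of its gene, with CpG dinucleotides in capitals.
Pramel7 (chr2:87492369-87492668, minus strand): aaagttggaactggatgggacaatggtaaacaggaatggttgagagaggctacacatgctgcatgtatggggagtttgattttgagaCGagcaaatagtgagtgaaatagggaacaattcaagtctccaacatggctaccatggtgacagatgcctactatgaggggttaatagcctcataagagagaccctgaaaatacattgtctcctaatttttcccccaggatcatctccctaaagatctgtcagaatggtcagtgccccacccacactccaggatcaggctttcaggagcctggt
Pramel6 (chr2:87506315-87506614, plus strand): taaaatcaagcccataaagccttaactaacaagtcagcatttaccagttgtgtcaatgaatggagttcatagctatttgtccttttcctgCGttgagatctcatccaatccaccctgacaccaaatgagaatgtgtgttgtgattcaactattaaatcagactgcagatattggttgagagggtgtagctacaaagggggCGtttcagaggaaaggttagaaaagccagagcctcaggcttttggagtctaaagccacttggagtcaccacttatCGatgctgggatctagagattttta
Pramel3 (chrX:135302066-135302365, plus strand): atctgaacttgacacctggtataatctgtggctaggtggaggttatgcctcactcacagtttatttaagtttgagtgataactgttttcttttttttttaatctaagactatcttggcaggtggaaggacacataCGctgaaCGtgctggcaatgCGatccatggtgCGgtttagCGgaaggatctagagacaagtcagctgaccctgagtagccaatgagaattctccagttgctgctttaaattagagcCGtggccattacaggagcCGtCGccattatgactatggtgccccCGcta
Pramef25 (chr4:143950967-143951266, minus strand): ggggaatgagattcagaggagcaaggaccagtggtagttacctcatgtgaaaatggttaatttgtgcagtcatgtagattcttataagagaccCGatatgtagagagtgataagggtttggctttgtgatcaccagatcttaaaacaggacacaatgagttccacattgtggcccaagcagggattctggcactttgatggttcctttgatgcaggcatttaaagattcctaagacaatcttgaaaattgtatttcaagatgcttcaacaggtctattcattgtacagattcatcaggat
Pramef17 (chr4:143994320-143994619, minus strand): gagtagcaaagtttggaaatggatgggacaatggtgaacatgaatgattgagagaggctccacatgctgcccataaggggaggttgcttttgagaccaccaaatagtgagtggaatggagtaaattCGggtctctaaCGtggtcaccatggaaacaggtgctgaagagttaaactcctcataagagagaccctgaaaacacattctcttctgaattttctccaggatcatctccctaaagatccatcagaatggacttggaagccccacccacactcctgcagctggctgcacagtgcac
Pramel5 (chr4:144280417-144280716, minus strand): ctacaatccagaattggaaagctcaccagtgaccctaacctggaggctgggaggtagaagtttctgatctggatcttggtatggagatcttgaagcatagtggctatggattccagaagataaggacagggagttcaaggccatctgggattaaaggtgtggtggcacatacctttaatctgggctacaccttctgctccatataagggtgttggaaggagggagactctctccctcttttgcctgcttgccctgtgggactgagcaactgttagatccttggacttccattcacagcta
Gm13128 (chr4:144329999-144330298, plus strand): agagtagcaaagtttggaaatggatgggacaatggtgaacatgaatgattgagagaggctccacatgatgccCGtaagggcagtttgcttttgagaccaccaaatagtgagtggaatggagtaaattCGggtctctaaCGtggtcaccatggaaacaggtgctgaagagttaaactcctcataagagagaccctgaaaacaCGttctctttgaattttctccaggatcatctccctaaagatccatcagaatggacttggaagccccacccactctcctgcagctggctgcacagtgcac
Pramef12 (chr4:144408415-144408714, minus strand): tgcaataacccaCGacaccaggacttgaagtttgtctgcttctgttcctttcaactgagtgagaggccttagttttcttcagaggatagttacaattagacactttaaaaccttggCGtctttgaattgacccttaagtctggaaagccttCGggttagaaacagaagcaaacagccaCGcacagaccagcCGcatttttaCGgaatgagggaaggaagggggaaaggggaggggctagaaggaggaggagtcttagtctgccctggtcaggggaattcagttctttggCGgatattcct

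The window of Pramel5 held 0 CpGs, those of Pramel7 and Pramef25 held 1 each, that of Pramef17 held 2, that of Pramel6 held 3 and that of Gm13128 held 4. Pramef12 had 7 CpGs, which was also the median of all 32851 RefSeq windows, and Pramel3 had 9. A window with at least 1 CpG made up 94.6% of all windows, and one with at least 9 made up 45.8%. In a global alignment the windows of Pramef17 and Gm13128 were identical at 97.3% of positions. The window of Pramel7 on chromosome 2 was 75.2% identical to that of Pramef17 on chromosome 4, and Pramel4 and Pramel5 were 83.4% identical. RefSeq starts Pramel7 inside the longer span that GENCODE gives it, which on this minus strand begins at chr2:87497093. The Pramel7 window, its CpG count and its identities may thus not describe the promoter in use. Which start these cells use was not tested. None of the 8 windows held ATGCAAAT (the octamer bound by POU factors), TTCNNNGAA (the core that STAT factors bind) or TATAAA on either strand. These occur in 1.74%, 8.30% and 13.6% of all windows, and their absence says only that the letters are not in these windows.

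Before the members, the libraries were checked against their labels. Each held 16110028 to 19706599 counts. Etl4 averaged 110 ± 3.35 and 97.9 ± 2.31 CPM (counts scaled to library size) in OdG KO lines 2 and 1, against 206 ± 3.16 CPM in OdG WT (SD, n = 2 each). In EG1 it averaged 134 ± 1.66 CPM in KO and 266 ± 2.96 CPM in WT (SD, n = 3 each), so Etl4 reads were fewer but present in all KO libraries. All 6 ESC markers (Pou5f1, Sox2, Nanog, Zfp42, Esrrb and Utf1) were present in every library, with sums of 3798 to 4049 CPM in OdG KO, 3119 to 3164 CPM in OdG WT, 4660 to 4796 CPM in EG1 KO and 4550 to 4674 CPM in EG1 WT. OdG WT stood apart from the other groups in genes outside the family. Guf1 averaged 43.7, 46.7, 36.8 and 40.5 CPM in OdG KO line 2, OdG KO line 1, EG1 KO and EG1 WT and 0.17 CPM in OdG WT, and Tfap2c averaged 111, 10.3, 86.8 and 87.6 CPM in those groups and 0.38 CPM in OdG WT. Every contrast with OdG WT rests on those 2 libraries, and the part of these differences in the members' values was not tested.

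CPM was scaled with TMM over all 12 libraries. A call means an adjusted p under 0.05 (edgeR's quasi-likelihood test, Benjamini-Hochberg over all genes tested, two-sided), and fold changes are log2 ± SE. As these are bulk libraries, fewer cells with a transcript and less of it per cell cannot be told apart.

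**Figure D1:**
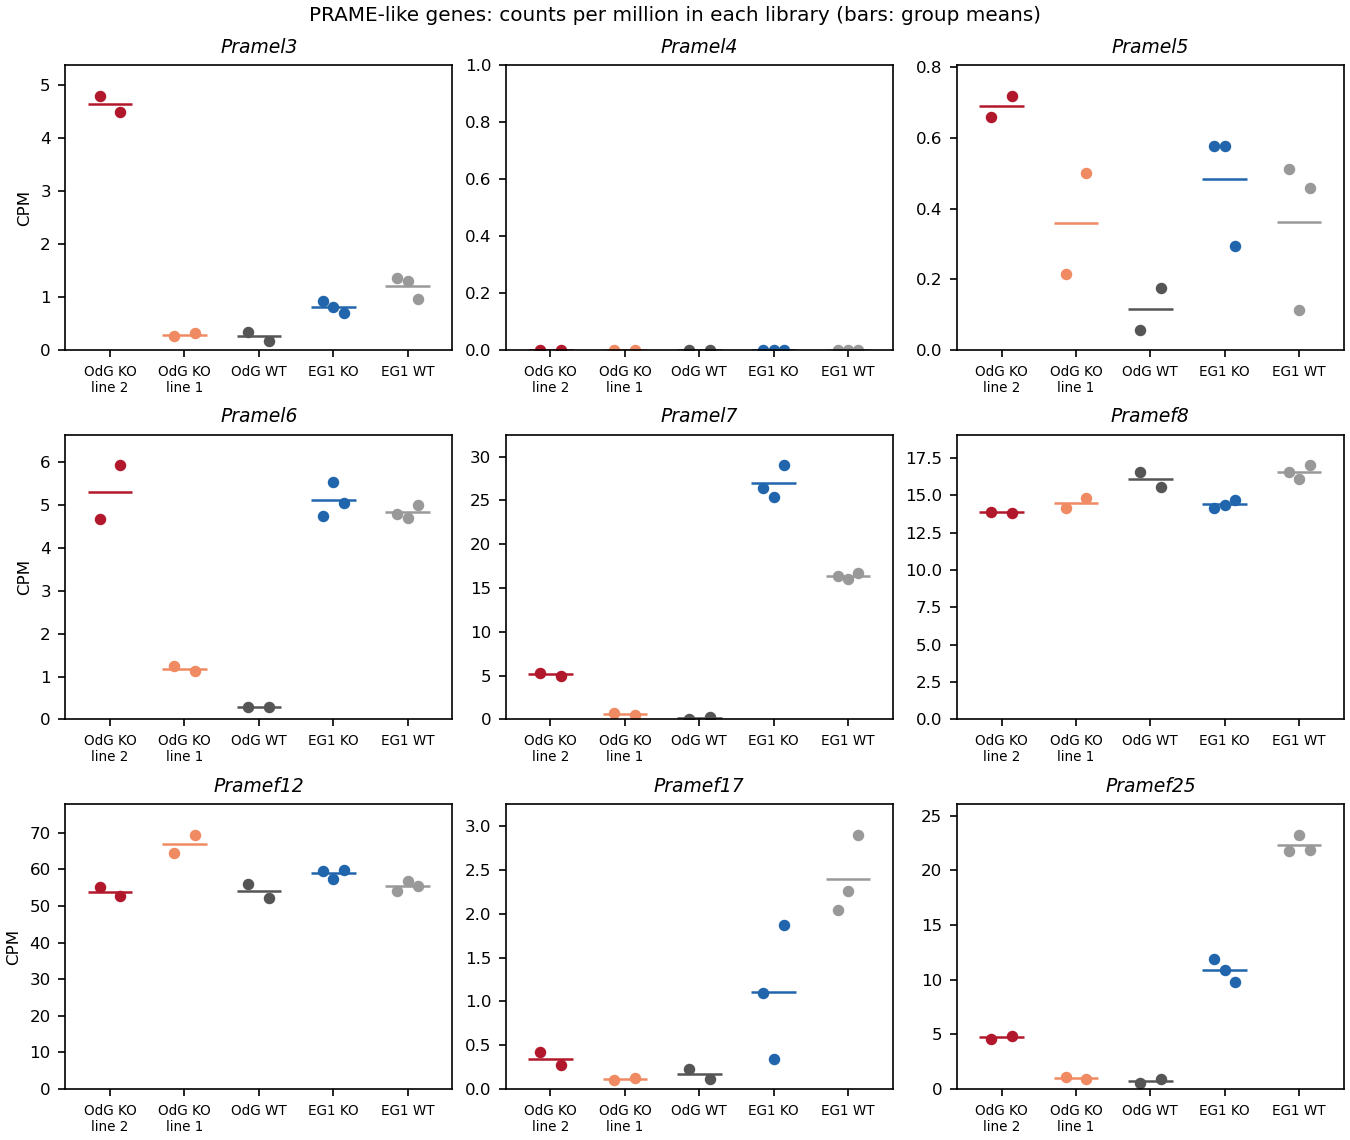
CPM (vertical axes, each from 0) of the 9 PRAME-like genes in each of 12 libraries; points are libraries and horizontal bars are group means, for OdG KO line 2, OdG KO line 1, OdG WT, EG1 KO and EG1 WT. Pramef12 stays between 52.1 and 69.4 CPM, while Pramel7 spans 0.057 to 29.0 CPM.

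Pramef12 and Pramef8 were present at similar levels in all 5 groups, and the remaining members varied widely. Pramef12, the spermatogonial member, was the most abundant. Per kilobase of exon it averaged 20.9, 26.0 and 21.0 CPM in OdG KO line 2, OdG KO line 1 and OdG WT, and 22.9 and 21.5 CPM in EG1 KO and EG1 WT. On the same per-kilobase scale Pramef8 lay between 3.32 and 3.97 CPM, and Pramel7 between 0.068 CPM in OdG WT and 12.6 CPM in EG1 KO. Pramel4 had 0 counts in every library. Counting 3 reads as the most that a count of 0 allows, it lay under 3 counts per library, but its near copy Gm13102 shares 85.0% of its 50-base stretches, and reads lost between the copies were not tested. Without Pramef12 and Pramef8, the members summed to 20.5 and 21.2 CPM in OdG KO line 2, 3.66 and 3.50 CPM in line 1 and 1.55 and 1.94 CPM in OdG WT. The same sum was 43.6 to 46.7 CPM in EG1 KO and 46.9 to 47.9 CPM in EG1 WT. These 7 genes were grouped after their values were seen.

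OdG KO line 2 carried far more Pramel7, Pramel6, Pramel3 and Pramef25 reads than OdG WT, while Pramef12 and Pramef8 were near the WT level. Of the 9 members 7 had enough counts to be tested in the OdG table, and 5 of the 7 were called higher and 0 lower in line 2. Wherever 0 members are said here to be called in a direction, the count was also 0 at an unadjusted p under 0.05 and with DESeq2. Of all 14413 genes tested, 30.0% were called higher and 29.8% lower, and since members were selected with this contrast known, nothing is read from their count. The median over the 7 members was 2.65 on the log2 scale, beside −0.01 over all genes tested. Members passed the filter on low counts partly through the group where they were high, and Pramel4 and Pramef17 did not pass.

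Pramel7, the UHRF1-directed member, had 89 and 90 counts in OdG KO line 2, 14 and 9 in line 1, and 1 and 4 in OdG WT. The 3 groups did not overlap in CPM, with line 2 highest and WT lowest. The fitted difference was 5.09 ± 0.39 (log2 ± SE) for line 2 against WT and 2.14 ± 0.61 for line 1 against WT. The line 2 value was 4.42 without the first WT library and 6.33 without the second. As summed counts scaled for depth, line 2 stood at 35.5 times WT, with an exact 95% interval of 15.0 to 111 that covers counting error only. Without the first WT library the line 1 difference was 1.48, and without the first line 1 library it was 1.91, and in both cases it was no longer called. Without the second WT library it was 3.38 and called.

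Pramel6, its neighbour on chromosome 2 with no near copy, had 78 and 107 counts in OdG KO line 2, 23 and 18 in line 1, and 5 in each OdG WT library. Again the groups stood apart in the order line 2, line 1, WT. The differences from WT were 4.17 ± 0.33 in line 2 and 2.01 ± 0.44 in line 1 (log2 ± SE). By summed counts Pramel6 was 18.4 times (exact 95% interval 9.77 to 38.9) the WT level in line 2 and 4.10 times (2.02 to 9.17) in line 1.

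The X-linked Pramel3 also separated the KO lines, with line 1 near OdG WT. It had 80 and 81 counts in OdG KO line 2, 5 and 5 in line 1, and 6 and 3 in OdG WT. Line 2 was far above both other groups, which overlapped in CPM. The difference was 4.12 ± 0.35 for line 2 against WT, 3.97 ± 0.34 for line 2 against line 1 and 0.15 ± 0.62 for line 1 against WT (log2 ± SE). Without the second WT library the line 1 value was −0.24. Gm15023, which shares 71.1% of the 50-base stretches of Pramel3, had 0 counts in every library.

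Pramef25, a chromosome 4 member, had 77 and 88 counts in OdG KO line 2, 20 and 14 in line 1, and 10 and 16 in OdG WT. Line 2 stood above both other groups, and line 1 overlapped WT in CPM. Its differences from WT were 2.65 ± 0.28 in line 2 and 0.38 ± 0.38 in line 1 (log2 ± SE). Gm13040, a near copy with 34.1% of its 50-base stretches in common, was at 0 counts throughout.

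Pramel5 and Pramef17 were scarce in OdG cells. Pramel5 had 11 and 13 counts in OdG KO line 2, 4 and 8 in line 1, and 1 and 3 in OdG WT, with line 2 highest, line 1 between and no overlap in CPM. Its line 2 difference was 2.51 ± 0.71 (log2 ± SE), and it was 1.93 and not called without the first WT library and 3.44 without the second. Pramef17 had 7 and 5 counts in line 2, 2 and 2 in line 1, and 4 and 2 in WT. Its summed counts gave ratios to WT of 1.99 (exact 95% interval 0.690 to 6.45) in line 2 and 0.666 (0.138 to 2.81) in line 1, so a difference was not detectable at this depth.

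Pramef12 had 918 and 952 counts in OdG KO line 2, 1196 and 1110 in line 1, and 978 and 889 in OdG WT. In CPM these were 55.0 and 52.7 in line 2, 64.4 and 69.4 in line 1, and 56.0 and 52.1 in WT. Line 1 stood above both other groups, which overlapped. The fitted difference from WT was 0.31 ± 0.059 in line 1 and −0.00 ± 0.060 in line 2 (log2 ± SE). Pramef8 had 13.9 and 13.8 CPM in line 2, 14.2 and 14.8 CPM in line 1, and 16.6 and 15.5 CPM in WT. All KO libraries lay below the WT ones, by −0.21 ± 0.098 in line 2 and −0.15 ± 0.098 in line 1 (log2 ± SE), and neither was called.

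In line 1 against OdG WT, 3 of 7 tested members (Pramel6, Pramel7 and Pramef12) were called higher and 0 lower, beside 26.8% of all genes called higher and 26.1% lower. The member median was 0.38 on the log2 scale. In line 2 against line 1, 4 of 7 (Pramel3, Pramel6, Pramel7 and Pramef25) were called higher and 1 (Pramef12) lower, beside 18.6% of all genes higher and 19.2% lower. Those 4 differed by 3.97 ± 0.34, 2.16 ± 0.24, 2.95 ± 0.29 and 2.27 ± 0.26, and Pramef12 by −0.31 ± 0.059 (log2 ± SE). The contrasts of both lines use the same WT libraries.

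**Figure D2:**
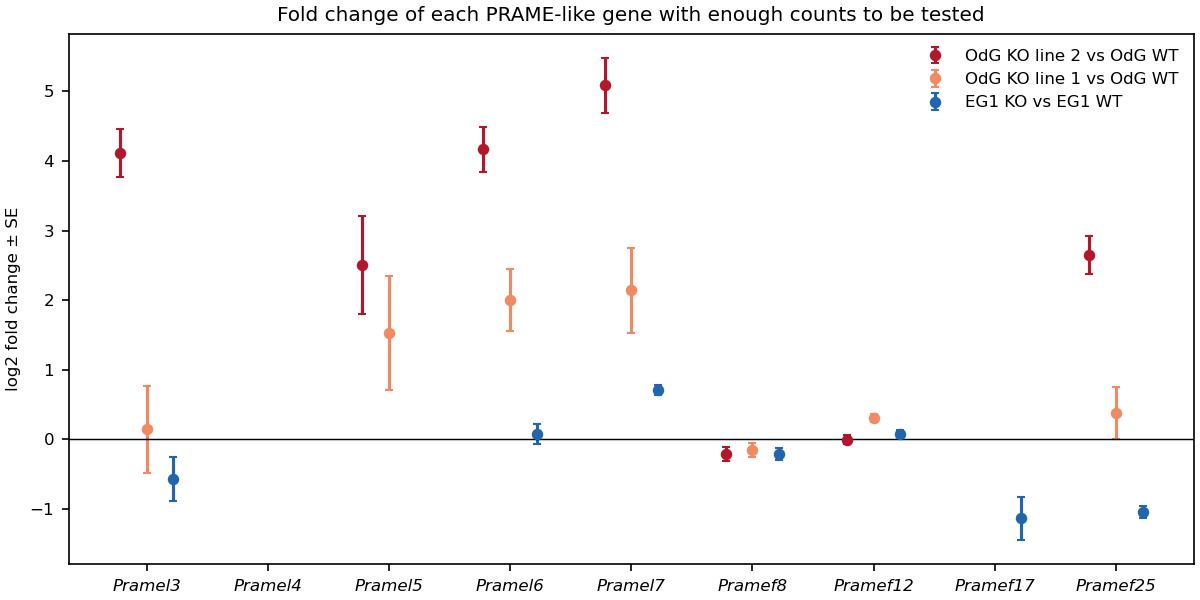
Log2 fold change ± SE (vertical axis) of each tested PRAME-like gene (horizontal axis) in OdG KO line 2 against OdG WT, OdG KO line 1 against OdG WT and EG1 KO against EG1 WT. Pramel7 lies at 5.09, 2.14 and 0.71, whereas Pramef25 lies at 2.65, 0.38 and −1.05, below 0 in EG1.

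In EG1, Pramel7 rose and Pramef25 and Pramef17 fell in Etl4 KO cells, and the other 4 tested members were not called. These 3 were 1 member higher and 2 lower of 7 tested, beside 3.60% of all 14016 genes tested called higher and 4.06% lower. The median over the 7 was −0.21 on the log2 scale, beside −0.00 over all genes. It is not recorded whether EG1 values entered the choice of members, so the p-values below may not be independent of it.

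Pramel7 had 458, 440 and 494 counts in EG1 KO libraries, against 288, 283 and 327 in EG1 WT libraries. In CPM these were 26.4, 25.4 and 29.0 in KO, against 16.4, 16.0 and 16.7 in WT. Every KO library was above every WT library. The gene rose by 0.71 ± 0.075 (log2 ± SE; adjusted p = 2.7e-08, edgeR), or 1.64-fold.

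Pramef25 moved the other way. It had 206, 189 and 166 counts in EG1 KO libraries, against 384, 411 and 429 in EG1 WT libraries. In CPM the KO libraries held 11.9, 10.9 and 9.75, below all WT libraries at 21.8, 23.3 and 21.9. The difference was −1.05 ± 0.087 (log2 ± SE; adjusted p = 2.9e-10, edgeR).

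Pramef17 had 19, 6 and 32 counts in EG1 KO libraries, against 36, 40 and 57 in EG1 WT libraries. The groups did not overlap, but the KO libraries were widely spread, at 1.10, 0.35 and 1.88 CPM, against 2.05, 2.26 and 2.91 CPM in WT. The difference was −1.13 ± 0.31 (log2 ± SE; adjusted p = 0.02, edgeR). It was not called with DESeq2 (adjusted p = 0.36), nor without the second WT library (adjusted p = 0.05), the third WT library (0.13) or the second KO library (0.14), by edgeR. Without the second KO library, which was the lowest, the difference was −0.71, and without the third KO library it was −1.74.

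Gm13128, whose transcript holds 73.5% of the 50-base stretches of Pramef17 and whose promoter window is nearly the same, had 155, 171 and 154 counts in EG1 KO libraries, against 89, 96 and 80 in EG1 WT libraries. Every KO library was above every WT library, the opposite direction to Pramef17. It rose by 0.93 ± 0.13 (log2 ± SE; adjusted p = 4.6e-06, edgeR). How reads were divided between these copies was not tested.

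Pramel6 showed no detectable difference in EG1, with 82, 96 and 86 counts in KO libraries, against 84, 83 and 98 in WT libraries. The groups overlapped in CPM, and the difference was 0.07 ± 0.14 (log2 ± SE; adjusted p = 0.82, edgeR). Its summed-count ratio of 1.06 had an exact 95% interval of 0.888 to 1.26. Pramel3 had 16, 14 and 12 counts in EG1 KO, against 24, 23 and 19 in EG1 WT. All KO libraries lay below the WT ones in CPM, yet the difference of −0.57 ± 0.32 (log2 ± SE) was not called (adjusted p = 0.31, edgeR).

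Pramef8 had 14.2, 14.4 and 14.7 CPM in EG1 KO, against 16.6, 16.1 and 17.0 CPM in EG1 WT. The KO libraries lay below the WT ones here too, by −0.21 ± 0.084 (log2 ± SE; adjusted p = 0.13, edgeR). Pramef12 had 59.5, 57.5 and 59.8 CPM in KO, against 54.1, 56.7 and 55.6 CPM in WT, and the difference of 0.08 ± 0.050 (log2 ± SE) was not called (adjusted p = 0.37, edgeR). Pramel5 had 10, 10 and 5 counts in KO, against 9, 2 and 9 in WT, with overlapping values, and did not pass the filter on low counts.

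The KO effect in EG1 was also set against the mean KO effect of the OdG lines in 1 fit of all 12 libraries. Of 8 tested members 0 were called higher and 4 lower in EG1, beside 19.5% of all 14977 genes tested higher and 20.2% lower. The 4 were Pramel6 at −3.01 ± 0.38, Pramel7 at −2.90 ± 0.47, Pramel3 at −2.70 ± 0.57 and Pramef25 at −2.55 ± 0.29 (log2 ± SE of the EG1 effect minus the OdG effect). With OdG KO line 1 in place of the mean of the lines, Pramel3 lay at −0.71 and Pramel7 at −1.43, and neither was called. The Pramel7 value was −2.23 without the first OdG WT library and −4.14 without the second. Pramef12 and Pramef8 lay at −0.06 ± 0.072 and −0.02 ± 0.12.

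EG1 WT cells carried more Pramel7, Pramef25, Pramel6, Pramef17 and Pramel3 reads than OdG WT cells, with Pramef8 and Pramef12 at like levels. In EG1 WT against OdG WT, 5 of 8 tested members were called higher and 0 lower, beside 35.0% of all genes higher and 35.4% lower. Pramel7 averaged 16.4 ± 0.32 CPM in EG1 WT (SD, n = 3) and 0.15 ± 0.13 CPM in OdG WT (SD, n = 2), a difference of 6.74 ± 0.25 (log2 ± SE), which was 6.07 without the first OdG WT library and 7.98 without the second. Pramef25 averaged 22.3 ± 0.82 CPM in EG1 WT and 0.76 ± 0.26 CPM in OdG WT, a difference of 4.86 ± 0.18.

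Pramel6 differed by 4.01 ± 0.30, Pramef17 by 3.73 ± 0.55 and Pramel3 by 2.17 ± 0.44 (log2 ± SE, EG1 WT over OdG WT). Pramel5 lay at 1.58 ± 0.81 and was not called. Pramef8 and Pramef12 lay at 0.03 ± 0.086 and 0.02 ± 0.056. Ordered by level, Pramel7 ran from EG1 KO through EG1 WT, OdG KO line 2 and OdG KO line 1 to OdG WT, with no overlap between neighbouring groups. Pramef25 ran from EG1 WT through EG1 KO and OdG KO line 2 to OdG KO line 1 and OdG WT, and only the last 2 overlapped. Pramel6 was alike in OdG KO line 2, EG1 KO and EG1 WT, at 5.30, 5.11 and 4.82 CPM with overlapping ranges, above OdG KO line 1 and OdG WT. Pramel3 was highest in OdG KO line 2, at 4.64 CPM, above EG1 WT at 1.21 CPM.

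**Figure D3:**
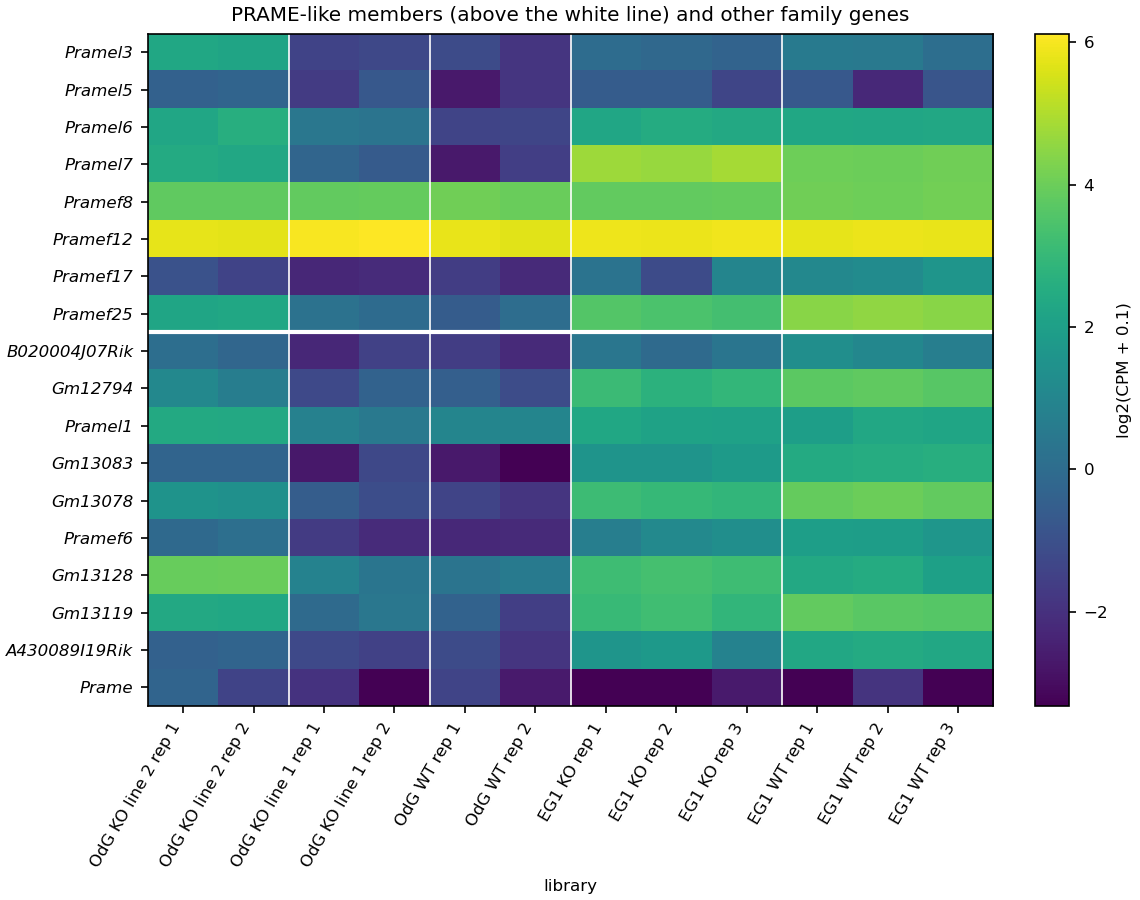
Log2(CPM + 0.1) by colour for 8 members with counts (above the white line) and 10 other family genes (below it), in rows, across the 12 libraries, in columns. OdG KO line 2 and the EG1 libraries are brighter than OdG KO line 1 and OdG WT in most rows, and Pramef12 and Pramef8 are bright in all.

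By RefSeq symbols or synonyms starting with Prame or Oog, the tables held 27 other genes of the family. The near copies Gm13102, Gm13040 and Gm15023 are not among them. In this set 10 genes reached 10 counts in some library and 10 had 0 counts in all. Most of these 27 genes thus had few or no counts, among them the Oog genes, which are named for the oocyte. Whether reads were lost between near copies among them was not tested, so a count of 0 need not mean a silent gene. Of the 9 that were tested, 9 were called higher in OdG KO line 2 against OdG WT (8 with DESeq2) and 1 (Gm13119) in line 1 (0 with DESeq2). These counts stand beside the 30.0% and 26.8% of all genes called higher. In EG1 KO against EG1 WT 7 were called lower (6 with DESeq2), 1 (Gm13128) higher, and Pramel1 was not called, beside 4.06% of all genes called lower and 3.60% higher. Among the 10 genes that reached 10 counts, the untested one was Prame itself, with at most 12 counts. All 27 genes together summed to 34.5 and 33.1 CPM in OdG KO line 2 and 6.19 and 5.82 CPM in line 1. In OdG WT they summed to 5.73 and 4.52 CPM. They summed to 44.3 to 48.2 CPM in EG1 KO and 64.0 to 70.5 CPM in EG1 WT.

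Gm13078 had 47 and 47 counts in OdG KO line 2, 11 and 6 in line 1, and 5 and 3 in OdG WT, with a line 2 difference of 3.51 ± 0.41 (log2 ± SE). In EG1 it had 154, 137 and 124 counts in KO libraries, against 258, 284 and 279 in WT libraries, a difference of −0.90 ± 0.10 (adjusted p = 1.3e-07, edgeR). In each table its KO libraries lay on one side of its WT libraries, above them in OdG and below them in EG1.

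Gm13128 had 253 and 279 counts in OdG KO line 2, 32 and 19 in line 1, and 20 and 23 in OdG WT. Its line 2 libraries were far above the rest of the table, by 3.62 ± 0.18 against WT (log2 ± SE). Pramel1 had 5.12 ± 0.13, 1.49 ± 0.25 and 1.88 ± 0.0087 CPM in line 2, line 1 and OdG WT (SD, n = 2 each), and 4.37 ± 0.36 and 4.49 ± 0.57 CPM in EG1 KO and EG1 WT (SD, n = 3 each).

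**Figure D4:**
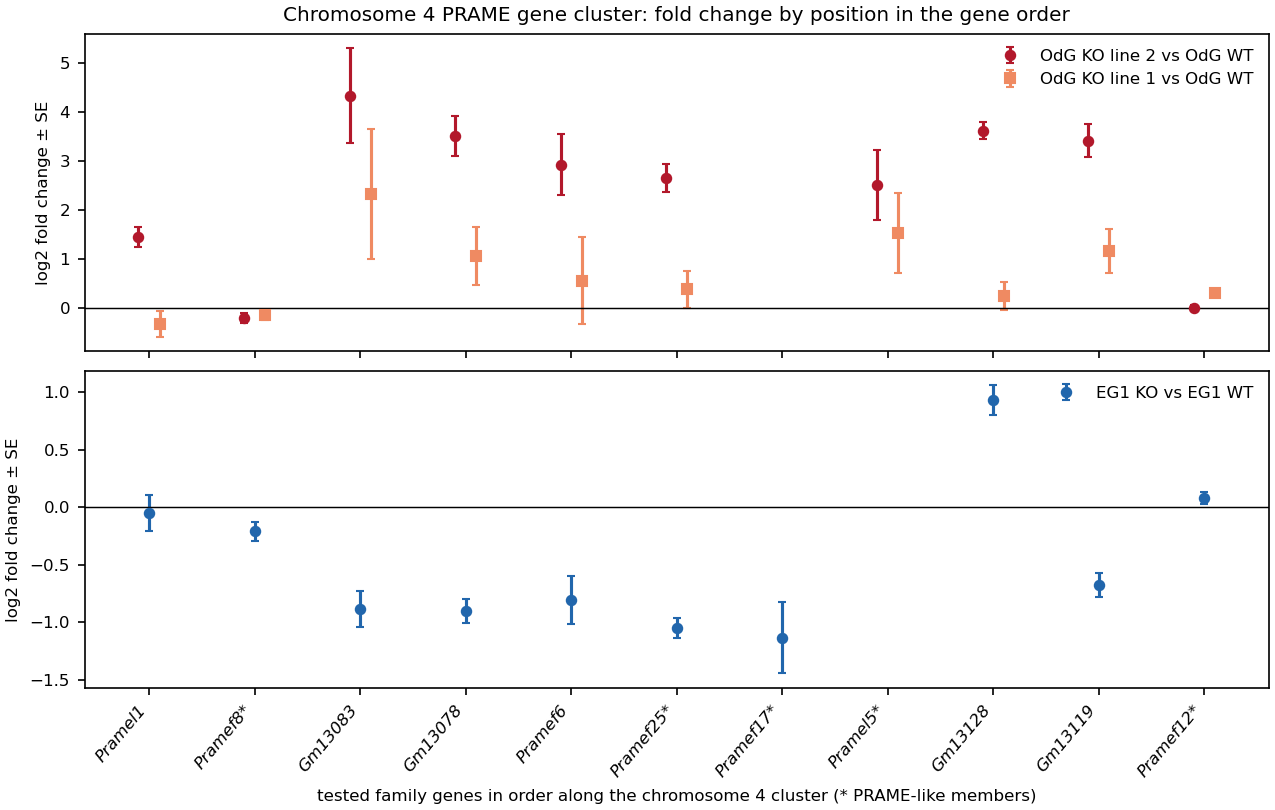
Log2 fold change ± SE (vertical axes) of the 11 tested family genes of the chromosome 4 cluster in their order along the chromosome (horizontal axis, 5 members starred), in OdG (upper panel, KO line 2 and KO line 1 against WT) and EG1 (lower panel, KO against WT). Pramef12 and Pramef8 lie near 0 in both panels. Genes between them that have a point are above 0 in OdG KO line 2 and below 0 in EG1 KO, except Gm13128 at 0.93. Pramef17 has no point in OdG and Pramel5 none in EG1, as they were not tested there.

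Members of the chromosome 4 cluster differed among themselves. Counted by RefSeq name as above, the cluster holds 21 family genes of the tables within 1014027 bases. Its tested genes included Pramef12 at one end and Pramef8 near the other. Both had differences within −0.21 to 0.31 on the log2 scale in any KO line against its WT. Between them Pramel5, Pramef25, Pramef6, Gm13078, Gm13083, Gm13128 and Gm13119 had line 2 differences of 2.51 to 4.33 on the log2 scale against OdG WT. The neighbours Pramel6 and Pramel7 on chromosome 2 both stood higher in OdG KO line 2 than in OdG WT, but in EG1 KO Pramel7 was called higher and Pramel6 was not called. Gm12794 and B020004J07Rik lie on chromosome 4 outside the cluster, and A430089I19Rik lies on chromosome 5. In that order their line 2 differences from OdG WT were 1.83 ± 0.42, 2.27 ± 0.60 and 1.39 ± 0.56 (log2 ± SE). Their differences in EG1 KO against EG1 WT were −0.81 ± 0.11, −0.87 ± 0.28 and −0.95 ± 0.18.

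The genes whose log2 CPM most resembled that of Pramel7 over the 12 libraries were Slco5a1 (Pearson r = 0.997), Arl14epl (0.995), Ddr2 (0.995), Cnot10 (0.993) and BC052688 (0.993), out of 14960 genes. Ddr2, a collagen receptor, averaged 16.5, 6.30 and 2.38 CPM in OdG KO line 2, line 1 and OdG WT, and 56.8 and 37.7 CPM in EG1 KO and EG1 WT, the same order of groups as Pramel7. For Pramef12 they were Nup210 (Pearson r = 0.925), Wdr4 (0.923), Hypk (0.922), Itgb5 (0.918) and Ncln (0.917). These values describe 12 libraries that share a cell line and a table in sets of 6, and carry no test.

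Genes of the processes in which PRAME proteins act were tallied from lists. These lists were chosen with earlier results of these data known, and most genes named from them were picked for a small adjusted p. Their adjusted p-values are therefore descriptions of selected genes. Each tally below stands beside 30.0% of all genes tested called higher and 29.8% lower in OdG KO line 2, 26.8% and 26.1% in line 1, and 3.60% and 4.06% in EG1 KO. Of 12 Cullin 2 ligase genes, 8 were called higher and 2 lower in OdG KO line 2 against OdG WT, 7 and 3 in line 1, and 0 in either direction in EG1 KO against EG1 WT (edgeR; 3 higher and 1 lower at an unadjusted p under 0.05, and 0 with DESeq2). Their medians were 0.23, 0.22 and 0.04 on the log2 scale. The scaffold gene Cul2 averaged 135 ± 2.32 CPM in OdG KO line 2, 125 ± 1.45 CPM in line 1 and 98.4 ± 2.42 CPM in OdG WT (SD, n = 2 each), a line 2 difference of 0.47 ± 0.040 (log2 ± SE). Vhl, another substrate receptor of this ligase, averaged 38.7 ± 0.20, 69.7 ± 3.38 and 98.8 ± 1.06 CPM in those groups, a line 2 difference of −1.35 ± 0.053.

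Of 9 tested DNA methylation and demethylation genes, 5 were called higher and 3 lower in line 2, 5 and 2 in line 1, and 3 and 0 in EG1 KO (edgeR; 3 and 1 at an unadjusted p under 0.05, 3 and 0 with DESeq2). Uhrf1, whose protein Pramel7 acts on, averaged 733 ± 2.07 CPM in OdG KO line 2, 674 ± 6.38 CPM in line 1 and 594 ± 5.36 CPM in OdG WT (SD, n = 2 each). Its mRNA was higher by 0.31 ± 0.028 in line 2 than in OdG WT (log2 ± SE). In EG1 it averaged 789 ± 14.8 CPM in KO and 766 ± 18.0 CPM in WT (SD, n = 3 each) and was not called (adjusted p = 0.54, edgeR).

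Dnmt3b, a de novo methyltransferase, was called higher in each KO line, by 1.22 ± 0.042 in OdG line 2, 0.90 ± 0.042 in OdG line 1 and 0.29 ± 0.042 in EG1 (log2 ± SE). Dnmt3l, the cofactor of the de novo enzymes, averaged 45.0 ± 0.62 CPM in EG1 KO and 27.9 ± 0.62 CPM in EG1 WT (SD, n = 3 each), and rose by 0.68 ± 0.059 (log2 ± SE; adjusted p = 5.6e-10, edgeR). In OdG cells Dnmt3l averaged 54.4 CPM in KO line 2, 29.7 CPM in line 1 and 36.4 CPM in WT. The line 1 libraries, at 28.3 and 31.0 CPM, thus lay below the WT ones, at 36.0 and 36.9 CPM. UHRF1 protein and DNA methylation were not measured.

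Of 11 LIF and STAT3 genes, 6 were called higher and 3 lower in line 2, 5 and 2 in line 1, and 1 and 0 in EG1 KO (edgeR; in EG1 KO also 1 and 0 at an unadjusted p under 0.05 and with DESeq2). Socs3, a STAT3 target that feeds back on the pathway, rose by 0.93 ± 0.040 in line 2 (log2 ± SE), to 150 ± 0.57 CPM, against 78.9 ± 0.29 CPM in OdG WT (SD, n = 2 each). The gene called in EG1 KO was the receptor gene Lifr, which rose by 0.18 ± 0.048 (log2 ± SE; adjusted p = 0.019, edgeR). Of 12 retinoic acid genes, 3 were called higher and 4 lower in line 2, 3 and 3 in line 1, and 0 and 2 in EG1 KO (edgeR; 1 and 2 at an unadjusted p under 0.05, 0 and 2 with DESeq2). The receptor gene Rarg rose by 1.17 ± 0.095 in line 2 and fell by 0.18 ± 0.048 in EG1 KO (log2 ± SE), where the receptor gene Rara also fell, by 0.30 ± 0.060.

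Genes of the 2-cell-like state, a rare state of cultured ESCs marked by Zscan4 and by genes of the early embryo, were higher in OdG KO line 2 and lower in EG1 KO than in the WT of each line. All 9 tested were called higher in line 2, 1 (Usp17lc) in line 1 (0 with DESeq2), and all 9 lower in EG1 KO (8 with DESeq2). Of all genes tested, 30.0% were called higher in line 2, 26.8% higher in line 1 and 4.06% lower in EG1 KO. Their list, with 11 genes in the tables, summed to 32.4 CPM in each OdG KO line 2 library, 8.78 to 9.95 CPM in line 1, 5.21 to 5.87 CPM in OdG WT, 68.9 to 74.6 CPM in EG1 KO and 129 to 138 CPM in EG1 WT. Zscan4d averaged 15.9 ± 2.02 CPM in EG1 KO and 29.8 ± 1.56 CPM in EG1 WT (SD, n = 3 each), a difference of −0.91 ± 0.081 (log2 ± SE; adjusted p = 1e-09, edgeR). This list too was chosen with earlier results of these data known, so its calls and p-values are descriptions. Zscan4, Tcstv and Usp17l genes are themselves near copies with uncertain counts.

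Markers of other cell types were read for the same libraries. The 10 germ cell markers summed to 123 CPM in both OdG KO line 2 libraries, 43.8 to 44.8 CPM in line 1, 49.3 to 63.8 CPM in OdG WT, 127 to 140 CPM in EG1 KO and 125 to 132 CPM in EG1 WT. Dazl, a germ cell RNA-binding protein gene, gave much of these sums, with 86.6, 21.8, 29.3, 118 and 112 CPM on average in those groups. Of them Nobox was at 0 in line 1 and OdG WT, Sohlh1 in line 1 and Nanos2 in EG1 WT. The 10 fibroblast feeder markers summed to 22.1 to 23.2 CPM in line 2, 44.1 to 47.0 CPM in line 1, 54.0 to 56.6 CPM in OdG WT, 14.6 to 17.0 CPM in EG1 KO and 12.6 to 14.5 CPM in EG1 WT, with 4 of 10 under 10 counts in each OdG group. Lum and Postn were at 0 in line 1, EG1 KO and EG1 WT, Col3a1 in line 1 and EG1 KO, and Dcn in EG1 KO and EG1 WT. The 6 trophoblast markers summed to 90.8 to 97.8, 123 to 125 and 105 to 106 CPM in the same OdG groups, and to 13.1 to 16.3 and 9.51 to 11.1 CPM in EG1 KO and EG1 WT. Cdx2, a trophoblast transcription factor gene, made up most of the OdG sums, with 83.8, 110 and 82.5 CPM on average in line 2, line 1 and OdG WT, beside 1.39 and 1.23 CPM in EG1 KO and EG1 WT. The 7 primitive endoderm markers summed to 6.89 to 12.6 CPM in all libraries. Their part in the members' differences was not tested.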

How the data were processed

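Raw counts per gene were used as the authors deposited them, in 1 table of 6 OdG libraries and 1 of 6 EG1 libraries, with all 12 columns used. Per the submitters' processing notes, CASAVA, HISAT2 (2.1.0), featureCounts (1.6.4) and DESeq2 were used with the mm10 build. Gene annotation, strand setting and handling of reads that fit several genes: not given in the sources used here. Columns of the EG1 KO libraries were assigned by their table and replicate number.

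Tests were edgeR (4.0.16) quasi-likelihood tests in R (4.3.3) on the deposited counts after filterByExpr and TMM scaling, with Benjamini-Hochberg adjustment over all genes tested and a threshold of 0.05. Contrasts within a cell line used the 6 libraries of its table, and contrasts between lines all 12. The SE of a log2 fold change was taken from the fold change and its F statistic. CPM used TMM over all 12 libraries. Code was tested on simulated data. Alternatives were DESeq2 (1.42.0), its size factors in edgeR, no filter on low counts, at least 10 counts in at least 2 libraries, leaving out each library, a replicate block, other sets of libraries, and either OdG KO line alone.

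Members and gene lists were chosen with earlier results of these data known. Named were all members, family genes reaching 10 counts, up to 4 genes per list with the smallest adjusted p, and the 5 genes most like Pramel7 and Pramef12 by Pearson r of log2 CPM (prior count 2). Uhrf1 in EG1 KO and the levels of Ddr2 were chosen for display after their values were seen. Guf1, Gnpda2 and Tfap2c were named outside these rules, as examples of genes low in OdG WT. Transcripts and coordinates came from GENCODE M21 (GRCm38, the assembly named mm10 in the notes), and promoter windows from RefSeq (GRCm38.p6). No protein sequence is used here. Intervals of summed counts are exact binomial and cover counting error only. Replicate libraries differed by more than sampling noise, with a chi-square per degree of freedom of 1.84 to 3.86 over genes.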

Additional observations from a re-analysis of the deposited data

Results flagged for a closer look

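For 4 members the KO effect in EG1 minus the mean KO effect of the OdG lines was past edgeR's threshold: Pramel6 (−3.01 on the log2 scale), Pramel7 (−2.90), Pramel3 (−2.70) and Pramef25 (−2.55). The members were chosen with the OdG effect known, so these values are a description and nothing is read from the calls. Every OdG effect uses the same 2 OdG WT libraries. Those libraries averaged 0.17 CPM of Guf1, 0.029 CPM of Gnpda2 and 0.38 CPM of Tfap2c. The part of those libraries in the differences was not tested. With OdG KO line 1 in place of the mean of the lines, the Pramel3 difference was −0.71 and the Pramel7 difference −1.43, and neither was called. Without the first and the second OdG WT library in turn, the Pramel7 difference was −2.23 and −4.14. Groups of 2 or 3 libraries are too small to single out a library by its distance from the rest.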

How the results depend on the processing

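Over all members and comparisons 647 alternative values were computed, of which 623 kept their direction and their side of the threshold, 9 were no longer called, 3 became called and 12 changed sign. Each change of sign was of a value near 0 that was not called. Pramef12 in OdG KO line 2 against OdG WT was 0.0043 with DESeq2's size factors, 0.0047 with DESeq2, 0.0017 without a filter and 0.0013 with at least 10 counts in at least 2 libraries, and ranged from −0.052 to 0.052 with a library left out. With a library left out, Pramel3 in line 1 against OdG WT ranged from −0.24 to 0.70, and in EG1 WT against OdG WT Pramef8 ranged from −0.015 to 0.084 and Pramef12 from −0.029 to 0.078. In the EG1 effect against the OdG effect, Pramef8 ranged from −0.073 to 0.027 with a library left out and was 0.0086 with OdG KO line 2 alone, where Pramef12 was 0.094.

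DESeq2 called 3406 genes in line 2 against line 1 (edgeR 5454) and 703 in EG1 KO against WT (edgeR 1074), where it called 1 member lower in place of 2; the cause was not tested. With a library left out, EG1 KO calls ranged from 638 to 1213 genes and from 1 to 2 members lower. Replicate numbers did not pair the libraries: same-numbered libraries of different groups deviated together with r of −0.050 to 0.028. With the replicate as a block, 906 genes were called in EG1 KO (Pramel7 0.71, Pramef25 −1.05 on the log2 scale), and Pramel5 in EG1 WT against OdG WT became called, at 2.27. Low counts limit what can be said of Pramel4, Pramel5 and Pramef17, with at most 57 counts in any library. The part of depth and of reads shared with near copies in these counts was not tested.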
